A study of Mus musculus with 25 samples.

Results

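The genes of ethanol oxidation and of acetate activation were followed in the mouse duodenum. They are the alcohol dehydrogenase genes Adh1, Adh4, Adh5, Adh6a and Adh7, the cytochrome P450 gene Cyp2e1, the catalase gene Cat, and the acetyl-CoA synthetase genes Acss1 and Acss2. They were taken by symbol from the deposited count table and make up 9 of its 17007 genes. Their choice used no cut-off on a measured value, and all 9 passed the filter on low counts in each test.

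Polyadenylated RNA from duodenum pieces of male mice was sequenced in 25 libraries. Feeding began at an age of 8 weeks and lasted for 8 weeks. WT_Con (n = 4) were C57BL/6N mice on control diet, and KI_Con (n = 4) were Aldh2KI mice, an Aldh2 knock-in, on the same diet. WT_Half (n = 7) and KI_Half (n = 6) were the same genotypes on a diet with 2.5% ethanol, and also received 2 g/kg ethanol by gavage 2 times per week. WT_Full (n = 4) were C57BL/6N mice on a diet with 5% ethanol and 4 g/kg by gavage at the same rhythm, and no Aldh2KI mice took this regimen. Tissue was taken 9 hours after a last gavage of 5 g/kg. The labels do not say whether the control mice were gavaged, whether WT_Half and KI_Half also received this last dose, which Aldh2 allele the knock-in carries or on which background strain. Each library is labelled as a separate sample with its own number, but no animal is named, so the p-values measure only the spread between these samples, which may be technical.

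Ethanol is oxidised to acetaldehyde mainly by cytosolic alcohol dehydrogenases, with a microsomal route through CYP2E1 and a peroxisomal one through catalase, which uses hydrogen peroxide. Acetaldehyde is then oxidised to acetate by aldehyde dehydrogenases, foremost mitochondrial ALDH2. Acetate becomes usable once an acetyl-CoA synthetase joins it to coenzyme A, ACSS1 in the mitochondrion and ACSS2 in the cytosol and nucleus. In the small intestine, alcohol dehydrogenases also act on retinol, and they belong to the enzymes of mature absorptive cells on the villus.

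The 5 alcohol dehydrogenase genes lie in 1 cluster on the plus strand of chromosome 3 in GRCm38. Their order in the GENCODE M21 annotation is Adh7 (chr3:138217760-138233382), Adh1 (chr3:138260991-138290698), Adh6a (chr3:138313286-138331134), Adh4 (chr3:138415466-138430892) and Adh5 (chr3:138443093-138455499). Cat (chr2:103453849-103485160) and Acss1 (chr2:150618105-150668500) are on the minus strand of chromosome 2, Acss2 (chr2:155517948-155585724) is on its plus strand, and Cyp2e1 (chr7:140763739-140774987) is on the plus strand of chromosome 7. Genes on the opposite strand overlap Adh1 (Gm16559), Adh7 (0610031O16Rik), Acss1 (E130215H24Rik) and Acss2 (Ggt7, Acss2os and Gss). The labels do not say whether reads were counted by strand, so reads of these neighbours cannot be told apart from those of the enzyme genes. Acss2 also overlaps the processed pseudogenes Mipep-ps and Gm20637 on its own strand, which counting by strand would not separate.

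The promoters below belong to Adh1, Adh4, Adh6a and Cat, whose levels moved together over the libraries, and to Adh5, whose level moved least. Each runs from 250 bases before to 50 after the RefSeq start site on GRCm38.p6 and is written in the direction of its gene. Capitals mark matches on either strand to 3 short motifs, which do not overlap here. The first is TATAAA, here called the TATA box. The second is CCAAT. The third is GGGCGG, here called the GC box.
Adh1, chr3:138277335-138277634: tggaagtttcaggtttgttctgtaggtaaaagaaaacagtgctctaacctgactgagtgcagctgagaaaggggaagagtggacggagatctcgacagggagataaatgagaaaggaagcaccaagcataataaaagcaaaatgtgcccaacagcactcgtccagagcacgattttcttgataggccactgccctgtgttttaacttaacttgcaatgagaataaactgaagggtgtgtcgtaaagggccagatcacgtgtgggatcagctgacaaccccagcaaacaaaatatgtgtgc
Adh4, chr3:138415247-138415546: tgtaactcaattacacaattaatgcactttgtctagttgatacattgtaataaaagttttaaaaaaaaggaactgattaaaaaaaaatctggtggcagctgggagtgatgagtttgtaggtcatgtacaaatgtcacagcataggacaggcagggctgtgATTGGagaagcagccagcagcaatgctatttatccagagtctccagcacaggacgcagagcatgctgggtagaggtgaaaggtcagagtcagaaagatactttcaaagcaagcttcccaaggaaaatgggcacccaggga
Adh6a, chr3:138313036-138313335: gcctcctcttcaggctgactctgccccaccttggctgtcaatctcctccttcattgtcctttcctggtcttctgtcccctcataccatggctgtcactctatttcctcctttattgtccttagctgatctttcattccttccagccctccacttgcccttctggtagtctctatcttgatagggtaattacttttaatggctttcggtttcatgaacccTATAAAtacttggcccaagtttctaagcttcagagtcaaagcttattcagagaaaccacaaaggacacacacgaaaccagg
Cat, chr2:103485104-103485403: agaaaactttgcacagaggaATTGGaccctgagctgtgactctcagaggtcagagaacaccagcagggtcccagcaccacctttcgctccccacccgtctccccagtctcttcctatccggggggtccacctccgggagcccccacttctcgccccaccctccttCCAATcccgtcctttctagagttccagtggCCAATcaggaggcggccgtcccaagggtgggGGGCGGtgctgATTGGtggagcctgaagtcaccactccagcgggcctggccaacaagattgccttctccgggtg
Adh5, chr3:138442843-138443142: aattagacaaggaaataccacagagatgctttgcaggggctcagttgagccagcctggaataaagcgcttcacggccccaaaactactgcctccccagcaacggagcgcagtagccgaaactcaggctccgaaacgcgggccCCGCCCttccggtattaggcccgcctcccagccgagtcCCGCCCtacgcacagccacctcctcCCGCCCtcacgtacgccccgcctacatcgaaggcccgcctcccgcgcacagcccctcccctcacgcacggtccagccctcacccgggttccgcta

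Adh6a has a TATA box that begins 31 bases before its start site, and Adh4 a single CCAAT motif. Adh1 has none of the 3 motifs in this window, and its RefSeq start lies inside the GENCODE gene. Cat has 4 CCAAT motifs and 1 GC box. Adh5 has 3 GC boxes, 26 CpG dinucleotides and 65% GC. The other 3 of these promoters on chromosome 3 have 42.3% to 46% GC and at most 6 CpG. Over 32817 promoters of this length the medians were 52.7% GC and 7 CpG, and 13.6% held the TATA motif, 37.4% the CCAAT motif and 35.6% the GC motif. A match is a stretch of letters and not a measured binding site.

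The libraries held 24.6 M to 44.8 M counted reads, with a median of 32.02 M. M stands for mega, and CPM below for counts per M counted reads. Adh7 had the fewest reads of the 9 genes, 13 to 609 per library, and Adh6a the most, 7405 to 49975. Villus enterocyte markers were high in all groups (10 of 10 in the table, summed level 15900 to 48506 CPM). Markers of pancreatic acinar or Brunner gland cells were high in some pieces, and the source of this RNA was not tested. The 8 summed pancreatic acinar markers reached 7.54, 8.39, 1603 and 4622 CPM in the KI_Con libraries and 3.86, 200, 1681 and 2287 CPM in the WT_Con libraries, against at most 42.3 CPM in the 17 libraries from ethanol-fed mice. WT_Con replicate 3 held 53685 CPM of 3 Brunner gland markers, against 15.3 to 33250 CPM in the other libraries. Aldh2 itself had 479 ± 21 (SD, n = 4) CPM in WT_Con and 441 ± 24.0 (SD, n = 4) CPM in KI_Con, which does not test the knock-in, since the allele is not described.

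Adh1 and Adh6a were by far the most abundant of the 9 genes for their length. Over the 25 libraries Adh1, the class I enzyme and the main ethanol oxidiser of the liver, had 430 ± 163 (SD) CPM per kb of its longest coding transcript. Adh6a, a less studied member of the same family, had 385 ± 168 (SD) CPM per kb. Their ranges overlapped in all 5 groups, and with all exons as the length Adh6a came first. Cat followed with 70.3 ± 29.8 (SD) CPM per kb, and did not overlap the pair above it in 4 of the 5 groups.

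Adh5, Acss1 and Cyp2e1 formed the next layer on the same scale, at 48.7 ± 6.65 (SD), 33.9 ± 14.3 (SD) and 32.5 ± 11.2 (SD) CPM per kb. Their order changed between groups and with the length used. Adh5 is the class III enzyme, which oxidises formaldehyde bound to glutathione and has little activity on ethanol. Adh4, the class II enzyme, had 10.2 ± 8.68 (SD) CPM per kb and Acss2 9.72 ± 2.08 (SD) CPM per kb. Adh7, the class IV retinol-oxidising enzyme of the upper digestive tract, was lowest in all groups with 0.605 ± 0.747 (SD) CPM per kb. Adh1 and Adh6a together made up 92.4% ± 3.01 (SD, n = 25) of the summed level per kb of the 5 alcohol dehydrogenases, and 83.1% to 94.7% in single libraries.

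**Figure D1:**
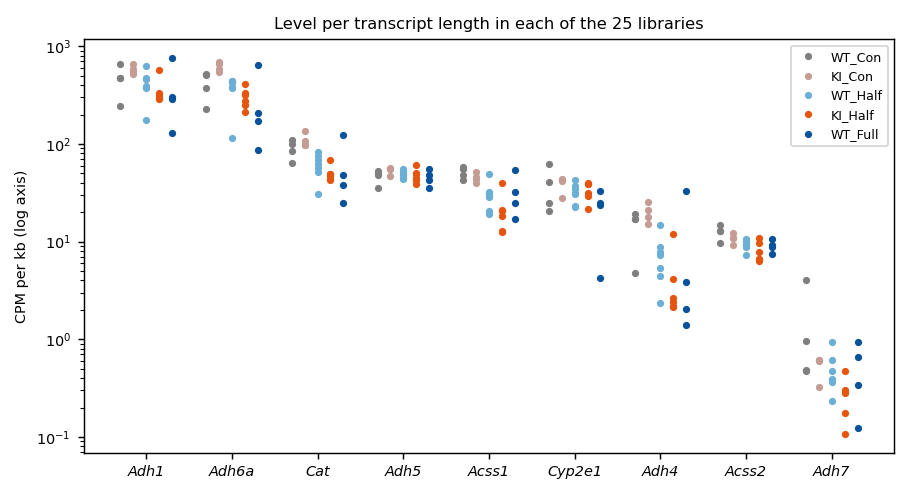
Level of each gene in CPM per kb of its longest coding transcript (vertical log axis) in each of the 25 libraries (points, coloured by group), with the genes in order of their mean. Adh1 and Adh6a sit at the top, Cat below them, and Adh7 at the bottom in every group.

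The genes differed in how far they varied. Adh5 was the steadiest, with a coefficient of variation of 13.7% over the 25 libraries and a highest level 1.75 times its lowest; 12.4% of genes with a mean of at least 1 CPM varied less. Adh4 had a coefficient of variation of 84.9% and Adh7 one of 124%, above 96% and 98.2% of those genes. The value of Adh7 rested on WT_Con replicate 3, and was 51.7% over the other 24 libraries. Acss2 came second from below with 21.5%, and the other 5 lay between 34.3% (Cyp2e1) and 43.7% (Adh6a).

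One library stood apart before any test. WT_Full replicate 4 was the highest of all 25 for Adh1 (1126 CPM) and Adh4 (43.7 CPM), and among the highest 5 for 7 of the 9 genes. Its villus markers summed to 48506 CPM, against 15900 to 27769 CPM in the other WT_Full libraries, and its part in these levels was not tested. Cyp2e1 went the other way in it: 7.83 CPM was the lowest of all, against 38.1 to 114 CPM elsewhere. The results in which WT_Full is compared are also given without it, a choice made after seeing these levels.

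**Figure D2:**
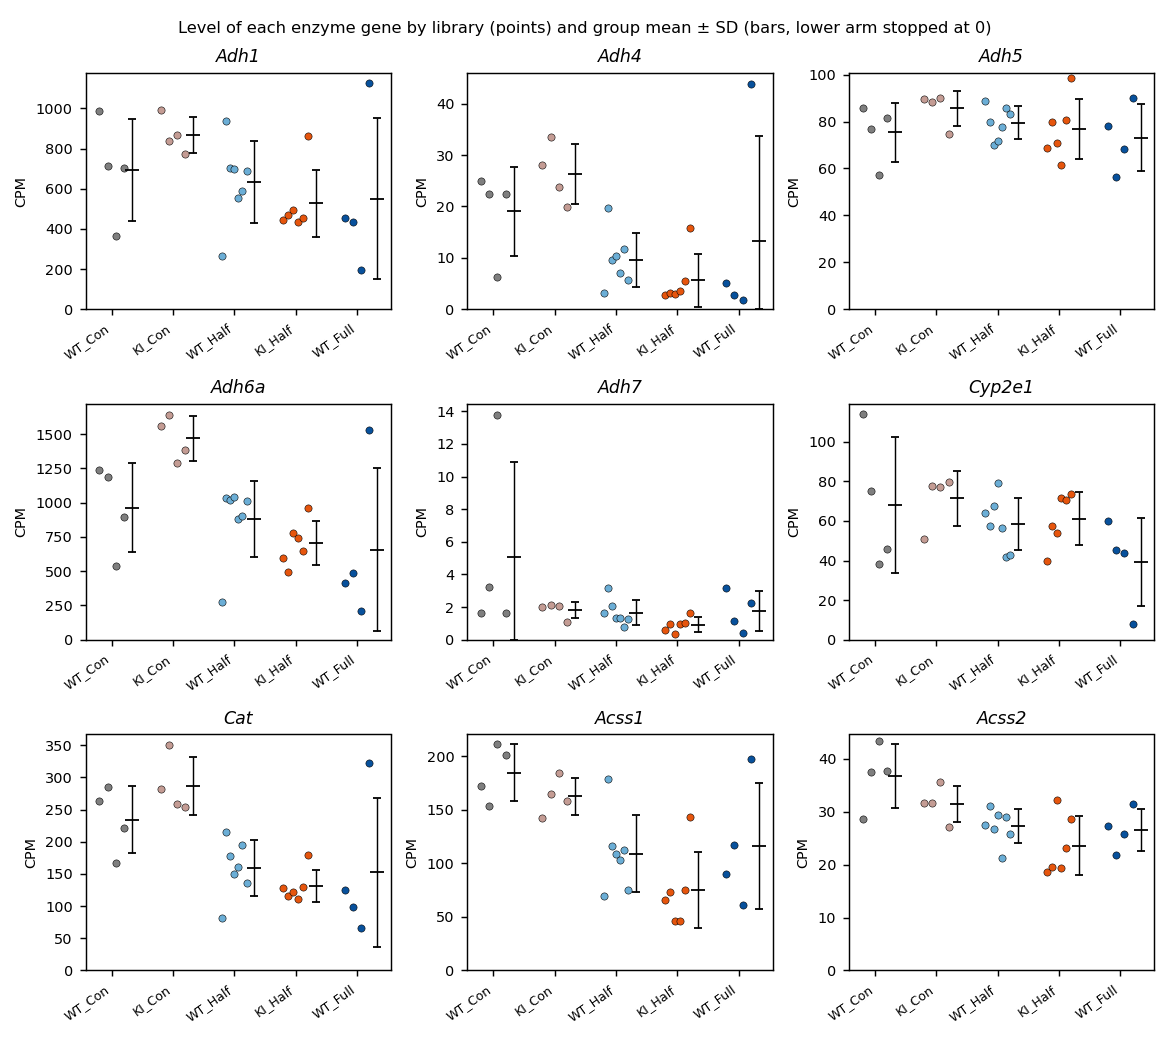
Level of each gene in CPM (vertical axis, linear from 0) in each library (points) of the 5 groups, with the mean and SD of each group as a bar to the right, its lower arm stopped at 0. Adh4, Adh6a and Cat in KI_Half lie below every KI_Con library, and WT_Full replicate 4 lies far above the rest of its group for Adh1, Adh4, Adh6a and Cat.

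The first question was whether the 2.5% ethanol regimen changed these genes in mice with the knock-in. In KI_Half vs KI_Con, 5 of the 9 genes fell, namely Adh1, Adh4, Adh6a, Cat and Acss1, and none rose (edgeR's quasi-likelihood test, Benjamini-Hochberg adjusted p under 0.05). In the same comparison 17.9% of 16944 genes were called lower and 37.9% were called in either direction. All 9 differences were negative, with a median log2 difference of -0.97 for the 9 genes and 0.0035 for all genes tested. In bulk tissue, fewer cells of a type and less RNA per cell cannot be told apart.

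Cat had 282, 351, 258 and 253 CPM in the KI_Con libraries, and 111 to 179 CPM in KI_Half with a median of 125 CPM. Every KI_Half library was below every KI_Con library. The log2 difference was -1.12 ± 0.15 (SE), with adjusted p = 0.00052 by edgeR. Cat makes the peroxisomal enzyme that splits hydrogen peroxide and can use it to oxidise ethanol.

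Adh6a had 1561, 1641, 1289 and 1381 CPM in KI_Con, and 497 to 961 CPM in KI_Half with a median of 697 CPM. Here too the groups did not overlap. The log2 difference was -1.05 ± 0.17 (SE), with adjusted p = 0.00112 by edgeR.

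Adh4 showed the largest log2 difference of the 9 genes. It had 28.0, 33.6, 23.7 and 19.9 CPM in KI_Con, and 2.80 to 15.8 CPM in KI_Half with a median of 3.35 CPM. The groups did not overlap, although KI_Half replicate 7 came close to the lowest control. The log2 difference was -2.21 ± 0.47 (SE), with adjusted p = 0.00442 by edgeR. Adh4, Adh6a and Cat were thus 3 of 9 genes with every KI_Half library below every KI_Con library, which held for 13.9% of all genes tested.

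Acss1 and Adh1 fell with some overlap. Acss1 had 143, 165, 185 and 158 CPM in KI_Con, and 45.8 to 143 CPM in KI_Half with a median of 69.7 CPM. Its log2 difference was -1.10 ± 0.28 (SE), with adjusted p = 0.0101 by edgeR. Adh1 had 993, 837, 866 and 774 CPM in KI_Con, and 434 to 862 CPM in KI_Half with a median of 464 CPM. Its log2 difference was -0.71 ± 0.19 (SE), with adjusted p = 0.0145 by edgeR, and it missed the threshold in a fit of all 25 libraries (adjusted p = 0.113).

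In both genes 5 of 6 KI_Half libraries lay below all controls, and KI_Half replicate 7 lay among them. The remaining 4 genes did not pass. Adh7 had a log2 difference of -0.97 ± 0.37 (SE; edgeR adjusted p = 0.0599), Acss2 of -0.41 ± 0.17 (SE; edgeR adjusted p = 0.0758), Cyp2e1 of -0.21 ± 0.18 (SE; edgeR adjusted p = 0.394) and Adh5 of -0.15 ± 0.13 (SE; edgeR adjusted p = 0.396). Adh7 passed by DESeq2 (adjusted p = 0.0345), and Acss2 in the fit of all 25 libraries (adjusted p = 0.04). Without KI_Half replicate 7 both passed by edgeR (adjusted p = 0.0163 and 0.0359). Over all genes, 7477 were then called in either direction, against 6420 with it. This library stood out by its levels of Adh1, Adh4, Cat and Acss1, and was the highest of KI_Half for Adh7. The fit without it therefore cannot test the followed genes independently. Its villus markers summed to 36850 CPM, against 16855 to 33850 CPM in the rest of KI_Half, and their part was not tested.

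Cell markers moved with this comparison. Of the 10 villus enterocyte markers 6 were called lower and 0 higher in KI_Half, with a median log2 difference of -0.55 and a summed level of 16855 to 36850 CPM against 33772 to 48597 CPM in KI_Con; none of the 10 was at 0. Of 6 crypt stem and dividing cell markers 3 were called higher and 1 lower. All 6 fibroblast markers had a negative difference, 3 of them called lower, with a median of -0.67 and a summed level of 143 to 268 CPM against 320 to 457 CPM in KI_Con, and 2 of 5 gastric markers were called lower. With the mean level of the villus markers as a covariate, an alternative chosen after seeing the data, 2 of the 9 genes remained below the threshold, Adh6a (log2 difference -0.99, adjusted p = 0.0196) and Cat (-0.89, adjusted p = 0.00976), where 5.74% of genes were called lower by edgeR.

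All 8 acinar markers were also called lower in KI_Half, where they summed to at most 11.6 CPM. Without the 2 KI_Con libraries above 100 CPM of these markers, also chosen after seeing the data, the same 2 genes passed, Adh6a (-0.92, adjusted p = 0.0284) and Cat (-0.96, adjusted p = 0.0158), with 6.54% of genes called lower by edgeR. In that fit Adh4 had -1.95 (adjusted p = 0.0572), Acss1 -1.19 (adjusted p = 0.0591) and Adh1 -0.63 (adjusted p = 0.119), with 2 control libraries left.

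In wild-type mice the same question gave no call. In WT_Half vs WT_Con, 8 of 9 differences were negative and 0 of the 9 genes passed by edgeR, where 1.47% of 16993 genes were called and 0.571% were called lower. An unadjusted p under 0.05 was found for 5 of the 9 genes and for 21.8% of all genes. The median log2 difference was -0.42 for the 9 genes and -0.0010 for all genes. DESeq2 called 3 of the 9 lower, Adh7, Acss1 and Acss2 (adjusted p = 0.0449, 0.0242 and 0.0463), against 3.83% of all genes.

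The acetyl-CoA synthetases came closest. Acss1 had 173, 153, 212 and 202 CPM in WT_Con, and 69.6 to 179 CPM in WT_Half with a median of 108.5 CPM; 6 of 7 WT_Half libraries lay below all controls. Its log2 difference was -0.75 ± 0.21 (SE; edgeR adjusted p = 0.0847). The exception was WT_Half replicate 2, and without it the difference was -0.92 (edgeR adjusted p = 0.0243). Acss1 was then the only one of the 9 to pass, where 0.924% of genes were called lower. This library was singled out by its Acss1 level, so the fit without it cannot test Acss1 independently.

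Acss2 had 28.6, 37.5, 43.3 and 37.7 CPM in WT_Con, and 21.2 to 31.1 CPM in WT_Half with a median of 27.5 CPM. The groups overlapped only through WT_Con replicate 1. The log2 difference was -0.42 ± 0.13 (SE; edgeR adjusted p = 0.0998).

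Cat differed by -0.55 ± 0.22 (SE; edgeR adjusted p = 0.182) and Adh4 by -0.98 ± 0.44 (SE; edgeR adjusted p = 0.216) on the log2 scale. Adh1 and Adh6a, the 2 abundant dehydrogenases, differed by -0.13 ± 0.30 (SE; edgeR adjusted p = 0.833) and -0.13 ± 0.32 (SE; edgeR adjusted p = 0.845). In both, WT_Half replicate 1 was the lowest library of its group, at 263 CPM for Adh1 and 272 CPM for Adh6a. Without it the log2 differences were 0.004 for Adh1 and 0.028 for Adh6a. Its villus markers summed to 18833 CPM, against 31616 to 39623 CPM in the rest of WT_Half, and its crypt markers to 1192 CPM, the highest of all libraries. Villus markers had a median log2 difference of 0.073 here, 7 of 8 acinar markers were called lower, and the part of these cells in the result was not tested.

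The 5% regimen in wild-type mice was the next comparison. In WT_Full vs WT_Con all 9 differences were negative, with a median of -0.56 against -0.00072 for all genes. By edgeR 0 of the 9 genes passed, where 0.00592% of 16882 genes were called, and 1 of the 9 had an unadjusted p under 0.05, against 17.8% of all genes. DESeq2 called 0 of the 9, against 5.38% of all genes. The smallest p was that of Acss2, with 27.4, 21.8, 25.8 and 31.5 CPM in WT_Full and a log2 difference of -0.46 ± 0.17 (SE; edgeR adjusted p = 0.223).

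WT_Full replicate 4 decided this count. It was singled out by its levels of these same genes, so the fit without it cannot test them independently. Without it Adh4, Cat and Acss1 were called lower, 3 of 9 genes, where 5.06% of all genes were called lower by edgeR. That share comes almost wholly from genes that played no part in the choice, so the 2 are not alike. Adh4 had 5.12, 2.66 and 1.85 CPM in the other WT_Full libraries, against 25, 22.5, 6.22 and 22.5 CPM in WT_Con, a log2 difference of -2.55 ± 0.55 (SE; edgeR adjusted p = 0.0254).

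Cat had 125, 98.4 and 65.5 CPM against 263, 285, 167 and 222 CPM in WT_Con, a log2 difference of -1.26 ± 0.26 (SE; edgeR adjusted p = 0.0223). Acss1 had 89.9, 117 and 61.0 CPM, a log2 difference of -1.03 ± 0.23 (SE; edgeR adjusted p = 0.0276). Replicates 1 to 3 of WT_Full lay below all WT_Con libraries in 5 of the 9 genes, these 3, Adh6a and Acss2, as they did in 13.4% of all genes. The same limit from the choice of replicate 4 applies to this count. Adh6a, with 411, 486 and 207 CPM, differed by -1.37 ± 0.38 (SE) without replicate 4, at an edgeR adjusted p of 0.050. The other 5 had -0.93 (Adh1, edgeR adjusted p = 0.154), -0.54 (Acss2, 0.0726), -1.66 (Adh7, 0.277), -0.44 (Cyp2e1, 0.453) and -0.14 (Adh5, 0.64). In replicates 1 to 3 of WT_Full the villus markers summed to 15900 to 27769 CPM, against 19791 to 41701 CPM in WT_Con. In the same replicates the 6 crypt markers summed to 583 to 875 CPM, above the 309 to 457 CPM of WT_Con. The acinar markers summed to 2.94 to 6.95 CPM there, against 3.86 to 2287 CPM in WT_Con. Their part in these differences was not tested.

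In the authors' deposited table for this comparison none of the 9 genes had an adjusted p under 0.05, while 11.5% of all genes did. The smallest there were Adh7 (log2 fold change -1.54, adjusted p = 0.0689) and Acss2 (-0.47, adjusted p = 0.0707). The authors' deposited table for KI_Half vs WT_Half also held none of the 9, with 1.24% of all genes under 0.05, and its smallest adjusted p among them was that of Acss1 (-0.53, adjusted p = 0.304).

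The effect of dose was compared between the 2 wild-type ethanol groups. In WT_Full vs WT_Half, 0 of the 9 genes passed by edgeR or had an unadjusted p under 0.05, and 0% of 16967 genes passed. DESeq2 called 0 of the 9, against 0.112% of all genes. The 9 log2 differences ran from -0.56 ± 0.39 (SE) for Cyp2e1 to 0.47 ± 0.74 (SE) for Adh4. Both ends rested on WT_Full replicate 4. Without it all 9 differences were negative, from -1.57 (Adh4) and -1.25 (Adh6a) over -0.80 (Adh1), -0.71 (Cat), -0.27 (Acss1), -0.21 (Cyp2e1), -0.21 (Adh5) and -0.10 (Acss2) to -0.059 (Adh7), with edgeR adjusted p from 0.298 to 0.969.

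**Figure D3:**
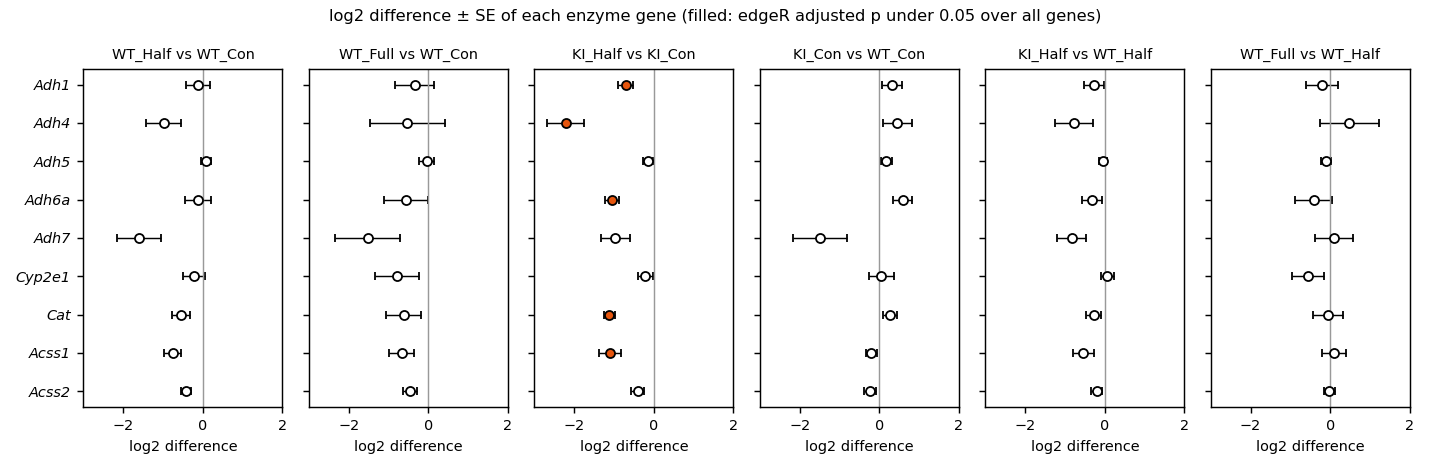
log2 difference of each gene in the 6 pairwise comparisons (horizontal axis, points) with its standard error (bars), filled where edgeR's adjusted p was under 0.05. Filled points occur only in KI_Half vs KI_Con, for Adh1, Adh4, Adh6a, Cat and Acss1.

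Genotype alone gave no call. In KI_Con vs WT_Con 0 of the 9 genes passed by edgeR, where 0% of 16813 genes passed. Adh6a alone of the 9 had an unadjusted p under 0.05, against 9.90% of all genes. DESeq2 called 0 of the 9, against 0.0476% of all genes. Adh6a had 1235, 1189, 539 and 894 CPM in WT_Con, and all 4 KI_Con libraries, at 1289 to 1641 CPM, lay above them. Its log2 difference was 0.59 ± 0.24 (SE; edgeR adjusted p = 0.502), and 4.58% of genes tested had groups that did not overlap. Adh6a was the only one of the 9 with no overlap here. Of the 10 villus markers 0 had a negative difference and 0 were called, with a median log2 difference of 0.45. WT_Con replicate 3, the lowest library for Adh6a here, held 53685 CPM of Brunner gland markers and 15508 CPM of gastric markers. The part of these cells in the result was not tested.

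Under the 2.5% ethanol regimen, KI_Half vs WT_Half, 8 of 9 differences were negative with a median of -0.28, against -0.020 for all genes. By edgeR 0 of the 9 genes and 0% of 16907 genes passed, and 1 of the 9 had an unadjusted p under 0.05, against 14.2% of all genes. DESeq2 called 0 of the 9, against 1.01% of all genes. The gene with the unadjusted p under 0.05 was Adh7, with 0.368 to 1.64 CPM and a median of 0.979 CPM in KI_Half, and 0.798 to 3.20 CPM with a median of 1.33 CPM in WT_Half. Its log2 difference was -0.83 ± 0.36 (SE; edgeR adjusted p = 0.328). Acss1 differed by -0.54 ± 0.27 (SE, edgeR adjusted p = 0.379) and Adh4 by -0.77 ± 0.47 (SE, edgeR adjusted p = 0.455). All 10 villus markers also had a negative difference here, 0 of them called, with a median of -0.24. Their part in the result was not tested.

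The response to the 2.5% regimen was not shown to differ by genotype. In the interaction test over 21 libraries, 0 of the 9 genes and 0% of 17006 genes passed by edgeR, and 1 of the 9 had an unadjusted p under 0.05, against 12.7% of all genes. DESeq2 called 0 of the 9, against 0.182% of all genes. The extra log2 difference in Aldh2KI mice was -0.92 ± 0.39 (SE; edgeR adjusted p = 0.354) for Adh6a, -0.56 ± 0.28 (SE; edgeR adjusted p = 0.408) for Cat and -1.23 ± 0.70 (SE; edgeR adjusted p = 0.449) for Adh4. For the other 6 genes the adjusted p was 0.509 to 0.994. All 10 villus markers also had a negative interaction term, 0 of them called, with a median of -0.72. Their part in the result was not tested.

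Over the 25 libraries most of the genes rose and fell together. Of their 36 pairs, Adh4 with Cat had the highest correlation of log2 CPM (Pearson's r = 0.956, Spearman's rho = 0.965, both with permutation p = 1e-05, the smallest that 100000 permutations give, and r = 0.949 without the 2 libraries farthest from the Adh4 median). Adh1 with Adh6a followed (r = 0.939, rho = 0.913, permutation p = 1e-05 for both, 0.885 without 2 libraries), then Adh6a with Cat (r = 0.902, rho = 0.898, permutation p = 1e-05 for both, 0.854 without 2 libraries). Each of the 3 had a Benjamini-Hochberg adjusted p of 4.5e-05 for r. With group means removed the r of these pairs was 0.934, 0.935 and 0.908, so they also held within groups.

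Acss1 went with Adh4 (r = 0.831, rho = 0.788, permutation p = 1e-05 and 2e-05, 0.804 without 2 libraries). Adh5 was more loosely tied, with r of at most 0.59 (with Adh4) over all libraries. Its r with Adh1 was 0.531 (rho = 0.633, permutation p = 0.00626 and 0.00103), and 0.727 without the 2 libraries farthest from the Adh1 median. Cyp2e1 stood outside, with r between -0.10 and 0.029 and rho between 0.062 and 0.393 to the other 8 genes. Its r changed with the libraries used: with Adh4 it was 0.432 and with Cat 0.34 without the 2 farthest libraries, and -0.346 and -0.437 with group means removed.

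**Figure D4:**
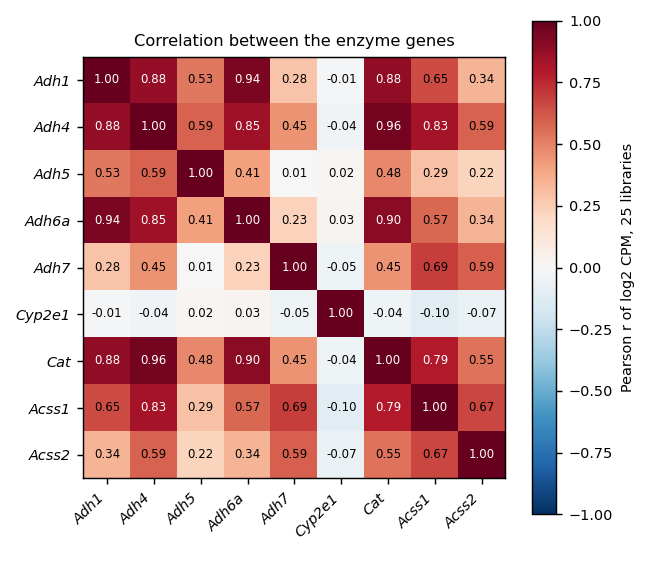
Pearson's r of log2 CPM over 25 libraries for each pair of genes (cells, colour scale from -1 to 1). Adh1, Adh4, Adh6a and Cat have 0.85 to 0.96 among themselves, and the row of Cyp2e1 is near 0.

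The genes most like each of the 9, by r of log2 CPM over the 25 libraries, differed between them, and these r are descriptions over shared libraries. For Cat they were Ehhadh (0.980), a peroxisomal enzyme of fatty acid oxidation, Galm (0.972) and Idh1 (0.970), which makes NADPH in cytosol and peroxisomes. For Adh6a they were Dao (0.968), the peroxisomal D-amino acid oxidase, Slc15a1 (0.964), the peptide carrier of the brush border, and Slc5a11 (0.960), an inositol carrier.

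Adh1 was most like Rdh7 (0.956), a retinol dehydrogenase, Hsd17b13 (0.949) and Bmp1 (0.949). Adh4 was most like Abcc6 (0.971), Slc6a20a (0.957), a carrier of proline, and Stxbp5 (0.956). Acss1 was most like Foxo4 (0.957), Rps6ka5 (0.953) and Zer1 (0.949), and Acss2 like Tns3 (0.862), Pik3c3 (0.855) and Dag1 (0.854). The closest to Adh5 were C230035I16Rik (0.822), Kxd1 (0.763) and Plcb3 (0.761), and to Adh7 Mpst (0.810), Usf3 (0.796) and Mgst2 (0.787).

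Cyp2e1, the ethanol-inducible P450 of the liver, was most like 3 genes known from liver, Mug1 (0.983), C8a (0.975) and Hpd (0.974). It also went with albumin, Alb, across the libraries (Pearson's r = 0.969, Spearman's rho = 0.898, both with permutation p = 1e-05 and adjusted p = 2e-05 over 2 relations, and r = 0.874 without the 2 libraries farthest from the Alb median). The Cyp2e1 level was 9.57% to 15.3% of the Alb level in every library, with a median of 12.1%. In WT_Full replicate 4, Alb was 72.2 CPM against 337 to 1086 CPM elsewhere, and it was the lowest library for 7 of 8 hepatocyte markers, the exception being Cps1.

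All 8 hepatocyte markers were in the table and none was at 0. They summed to 515 to 1134 CPM in WT_Full and 914 to 1968 CPM in WT_Con. These sums include Cps1, which alone had 190 to 426 CPM in WT_Full and 321 to 785 CPM in WT_Con. Cyp2e1 had 59.9, 45.3, 43.8 and 7.83 CPM in WT_Full against 114, 75.3, 38.1 and 45.6 CPM in WT_Con. The groups overlapped, and the log2 difference was -0.79 ± 0.56 (SE; edgeR adjusted p = 0.47), or -0.44 ± 0.37 (SE; edgeR adjusted p = 0.453) without WT_Full replicate 4. Whether liver RNA contributed to its level was not tested.

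Adh7 was marked by 1 library. WT_Con replicate 3 had 13.8 CPM, against 1.67, 3.26 and 1.62 CPM in the other WT_Con libraries. The same library held 15508 CPM of 5 gastric markers, against 2.99 to 529 CPM in the other 24, among them Gkn2 at 6722 CPM, Gkn1 at 5740 CPM and Muc5ac at 2045 CPM. The marker Atp4a of acid-secreting cells was at most 1.03 CPM in WT_Con, and the markers Tff1, Atp4b and Gif were not used. Over all libraries Adh7 and the gastric sum had r = 0.434 and rho = 0.0762 (permutation p = 0.0346 and 0.718, adjusted over 2 relations 0.0346 and 0.718), and r = 0.0276 without the 2 libraries farthest from the median, so the r rests on those libraries. Without WT_Con replicate 3 the log2 difference of Adh7 in WT_Half vs WT_Con was -0.39 ± 0.40 (SE; edgeR adjusted p = 0.6), against -1.60 ± 0.55 (SE; edgeR adjusted p = 0.13) with it.

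**Figure D5:**
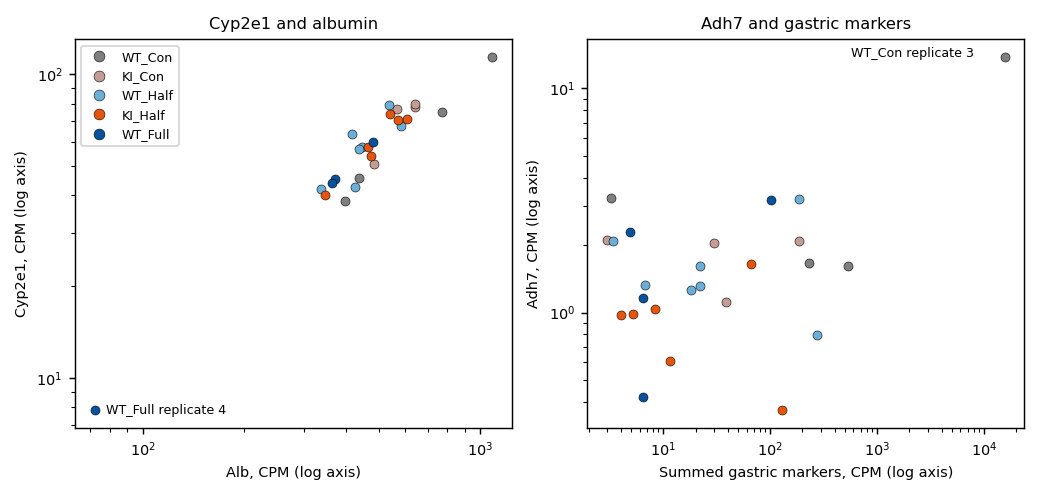
Left, Cyp2e1 against Alb, and right, Adh7 against the sum of 5 gastric markers, both in CPM on log axes, with 1 point per library coloured by group. Cyp2e1 and Alb lie along a line with WT_Full replicate 4 at its lower end, while for Adh7 the single library WT_Con replicate 3 lies far from the other 24.

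Other genes around the pathway were read as lists in KI_Half vs KI_Con, where 17.9% of all genes were called lower and 20% higher. Villus, fibroblast and acinar markers fell in the same comparison, as given above, and their part in the list counts was not tested. Of 10 genes of aldehyde handling 9 were tested, all with a negative difference, and 4 were called lower and 0 higher. Their median log2 difference was -0.33. The 4 were Aldh1a1, Aldh3a2, Akr1a1 and Esd. Akr1a1 and Esd are not aldehyde dehydrogenases, so the count does not describe aldehyde oxidation alone. Aldh1a1, the cytosolic retinaldehyde and acetaldehyde dehydrogenase, fell by 0.85 on the log2 scale (edgeR adjusted p = 0.00456), and Akr1a1, which reduces aldehydes, fell by 0.37 (edgeR adjusted p = 0.00775). Aldh1b1, a mitochondrial enzyme related to ALDH2, differed by -0.40 (edgeR adjusted p = 0.182) and Aldh2 by -0.27 (edgeR adjusted p = 0.0918).

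Peroxisomal genes other than Cat were mostly lower in that comparison. Of 12, 7 were called lower and 1 higher, with a median of -0.50, against 17.9% lower among all genes. Acaa1a, a thiolase, fell by 1.48 on the log2 scale (edgeR adjusted p = 0.000334), Crat, the carnitine acetyltransferase, by 1.15 (edgeR adjusted p = 0.00581), and Ehhadh, named above as most like Cat, by 1.08 (edgeR adjusted p = 0.00132). Pex5, the import receptor that carries peroxisomal proteins, had -0.31 (edgeR adjusted p = 0.08) and Pex14, its docking partner, 0.27 (edgeR adjusted p = 0.0852).

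Of 4 genes of the P450 reductase and of cytochrome b5 with its reductase, 2 were called lower and 0 higher. They were Cyb5b, the mitochondrial form of cytochrome b5 (-1.15, edgeR adjusted p = 0.00262), and Cyb5r3 (-0.92, edgeR adjusted p = 0.000875). Cyb5a, the microsomal form, had -0.022 (edgeR adjusted p = 0.915). The count therefore does not describe electron supply to microsomal CYP2E1. Por, the P450 reductase that CYP2E1 depends on, had 0.35 (edgeR adjusted p = 0.102).

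Genes of the sterol response, to which Acss2 belongs, and of acetyl-CoA use moved in both directions. Of 20, 19 were tested, and 6 were called higher and 3 lower, with a median of 0.22. The 3 lower of 19 are near the 17.9% of all genes. Slc16a1, the monocarboxylate carrier that also moves acetate, rose by 0.81 (edgeR adjusted p = 0.00351), and Sirt3, the mitochondrial deacetylase that acts on ACSS1, fell by 0.84 (edgeR adjusted p = 0.0109). Hmgcs1 had 0.22 (edgeR adjusted p = 0.313) and Scd1 -0.14 (edgeR adjusted p = 0.665).

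Of 12 genes of retinol metabolism, the other substrate of these dehydrogenases, 4 were called lower and 3 higher, with a median of -0.31, against 17.9% lower and 20% higher among all genes. Rdh7, named above as most like Adh1, fell by 1.09 (edgeR adjusted p = 0.00759) and Bco1, which cleaves beta-carotene, rose by 2.14 (edgeR adjusted p = 0.00156). Rbp2, the retinol-binding protein of enterocytes, had 0.14 (edgeR adjusted p = 0.678) and Rdh10 0.31 (edgeR adjusted p = 0.267). In the other 6 tests edgeR called 0 genes of any of the 5 lists, where it called 0% to 1.47% of all genes. Between 0 and 6 genes of a list had an unadjusted p under 0.05 there, against 4.6% to 21.8% of all genes. The count of 6 was reached by 6 of 12 peroxisomal genes in the interaction, against 12.7% of all genes. It was also reached by 6 of 19 sterol and acetyl-CoA genes in KI_Con vs WT_Con (9.90% of all genes) and in WT_Half vs WT_Con (21.8%).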

How the data were processed

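RNA was sequenced from 25 duodenum samples in 5 groups, taken from the sample titles. The authors deposited raw read counts per gene in 2 tables with the same counts, each with a log2 fold change, its standard error and p-values of 1 comparison, per the file headers. FastQC, Trimmomatic, HISAT2, SAMtools, featureCounts and DESeq2 with GRCm38 are named, per the submitters' processing notes, with versions, strand setting, annotation and handling of reads with several matches not given in the sources used here. Of 17220 lines, 213 repeats of an identifier were merged, leaving 17007 genes; 16995 were found in GENCODE M21, which gave positions and lengths.

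The counts were tested with edgeR 4.0.16 (R 4.3.3) by the quasi-likelihood test on the libraries of each comparison, with TMM scaling, filterByExpr and a Benjamini-Hochberg adjusted p under 0.05 over all genes tested. The interaction was fitted on 21 libraries. CPM use TMM library sizes, log2 CPM a prior count of 2, and standard errors are the log2 difference over the square root of F. DESeq2 1.42.0, other size factors, no filter, all libraries in 1 fit, a replicate block, a Brunner gland covariate and each library left out were tried as alternatives. The test was tested on simulated counts. Correlations used Python 3.11.15 and scipy 1.17.1. Depth was 24.6 M to 44.8 M counted reads per library, so that counting error is small except for Adh7.

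The 9 genes were given by symbol. They and the lists and markers were chosen with earlier results of these data known. All 9 are named; of each list, the genes named are the 2 with the smallest p in WT_Full vs WT_Con and the 2 with the smallest p in KI_Half vs WT_Half, and Aldh2 is named as the gene of the knock-in. Genes most alike are the 3 with the highest Pearson's r among 14961 genes with a mean of at least 1 CPM. Ehhadh and Rdh7 are list genes named by this last rule. Aldh3a2, Esd and Cyb5a are list genes named outside these rules, to make plain what the list counts hold.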

Additional observations from a re-analysis of the deposited data

Results flagged for a closer look

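In 45 sets of values (9 genes in 5 groups), 12 held a library that lay far from the others of its group by Dixon's test. Chance gives about 1 in 20 independent sets. These sets share libraries, and most of the genes rose and fell together, so 1 library can be counted several times. The 12 therefore cannot be held against that rate. KI_Half replicate 7 was the highest of its group in 4 genes: Adh1 at 862 CPM (the others at 434 to 492), Adh4 at 15.8 CPM (2.80 to 5.46), Cat at 179 CPM (111 to 130) and Acss1 at 143 CPM (45.8 to 75.6). WT_Full replicate 4 had 43.7 CPM of Adh4, against 1.85 to 5.12 CPM in the other 3.

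WT_Con replicate 3 was low for Adh4, at 6.22 CPM against 22.5 to 25, and high for Adh7, at 13.8 CPM against 1.62 to 3.26. KI_Con replicate 4 was low for Adh5, at 74.7 CPM against 88.5 to 89.9, and for Adh7, at 1.11 CPM against 2.04 to 2.10. KI_Con replicate 1 had 50.8 CPM of Cyp2e1, against 77.1 to 79.8 CPM. WT_Half replicate 1 had 272 CPM of Adh6a, against 883 to 1042 CPM, and WT_Half replicate 2 had 179 CPM of Acss1, against 69.6 to 116 CPM.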

How the results depend on the processing

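Of 1134 alternative values for the single genes, 1059 kept their direction and side of the threshold, 7 lost a call, 16 gained one and 52 turned in sign; for the changes below the cause was not tested. DESeq2 called 908 genes in WT_Full vs WT_Con (1 by edgeR), 1348 in WT_Half vs WT_Con (249, and 3 of the 9 genes against 0), 171 in KI_Half vs WT_Half (0), 19 in WT_Full vs WT_Half (0), 8 in KI_Con vs WT_Con (0) and 31 in the interaction (0). One fit of all 25 libraries called 1289 genes in WT_Full vs WT_Con, 720 in WT_Half vs WT_Con, 2 in KI_Half vs WT_Half and 1 in KI_Con vs WT_Con, where the Brunner gland covariate gave 0, 7, 2 and 1. In KI_Half vs KI_Con, 6420 genes and 5 of the 9 became 2380 and 2 with the villus covariate and 2565 and 2 without the acinar-rich controls. Same-numbered libraries did not deviate together throughout (r from -0.304 to 0.405, not above 0.1 in every pair of any comparison), so the numbers were not taken as a pairing. In KI_Con vs WT_Con, however, replicates 1, 2 and 3 matched best with their own number (r = 0.14, 0.207 and 0.253). Replicate 4 did not (r = -0.0154). The replicate block gave 0 genes in WT_Full vs WT_Con, 0 in WT_Half vs WT_Con and 1 in KI_Con vs WT_Con. In KI_Half vs KI_Con it called 8 of the 9 genes, and 6153 genes (36.4%) of all. That fit kept only replicates 1, 2 and 3, without KI_Half replicates 5, 6 and 7 and KI_Con replicate 4. The block turned Cyp2e1 in WT_Half vs WT_Con (0.107). Against WT_Half, it turned Adh4 (-0.605), Adh7 (-0.437) and Acss1 (-0.062) in WT_Full. Both of these fits lacked WT_Half replicates 5, 6 and 7, which have no partner there. In these fits the block cannot be told apart from the loss of libraries. The block also turned Acss2 in the interaction (-0.008). The Brunner gland covariate turned Acss2 in WT_Full vs WT_Half (0.004) and in the interaction (-0.074), and Cyp2e1 in KI_Con vs WT_Con (-0.006); the villus covariate turned Adh5 in KI_Half vs KI_Con (0.058). With 1 library left out at a time, genes called ran from 0 to 2069 in WT_Full vs WT_Con (0 to 3 of the 9, the high end without WT_Full replicate 4), 21 to 446 in WT_Half vs WT_Con (0 to 1 of the 9), 0 to 1 in KI_Half vs WT_Half, 0 to 2 in WT_Full vs WT_Half, 0 to 1 in KI_Con vs WT_Con and 4927 to 7477 in KI_Half vs KI_Con (5 to 7 of the 9). Log2 differences that then turned in sign ran, in WT_Full vs WT_Con, from -0.152 to 0.070 for Adh5; in KI_Half vs WT_Half, from -0.136 to 0.021 for Adh5; in WT_Half vs WT_Con, from -0.343 to 0.106 for Adh1, -0.032 to 0.160 for Adh5, -0.327 to 0.028 for Adh6a and -0.425 to 0.157 for Cyp2e1. In WT_Full vs WT_Half they ran from -0.803 to 0.083 for Adh1, -1.568 to 0.838 for Adh4, -0.370 to 0.417 for Adh7, -0.708 to 0.195 for Cat, -0.271 to 0.310 for Acss1 and -0.103 to 0.043 for Acss2. In KI_Con vs WT_Con Cyp2e1 ran from -0.143 to 0.420, and in the interaction Adh7 from -0.578 (without WT_Con replicate 3) to 0.942, Cyp2e1 from -0.364 to 0.205 and Acss2 from -0.086 to 0.119. Adh7, at 13 to 609 reads per library, is the gene most limited by depth.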
